A study of Mus musculus with 16 samples.

Results

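Immediate early genes are the genes that cells switch on first after a stimulus, before any new protein is made. The 10 genes described here were Fos, Fosb, Jun, Junb and Jund, which encode subunits of the dimeric transcription factor AP-1, the transcription factor genes Egr1 and Atf3, the regulators Ier2 and Ier3, and the phosphatase gene Dusp1. Members were all probe sets whose annotation gave one of these symbols as the only gene, which selected 12 of 45037 probe sets, 2 each for Jun and Jund and 1 for every other gene. No further probe set listed a member among several genes.

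The arrays carried total RNA of E14tg2a, a cultured line of mouse embryonic stem cells, and the series' design text states that the material was shared by all arrays and that each amplified array had its own amplification. The 8 amplified arrays each started from 10 pg of diluted RNA, roughly what a single cell holds, copied into cDNA and multiplied by PCR with the V1V3 method. The 8 nonamplified arrays each started from 5 µg, labelled without PCR. The comparison asks how amplification from so little RNA changes what is measured, since the RNA itself was the same.

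In a resting cell the kinases ERK, JNK and p38 and the factors SRF and CREB are held ready, and a growth factor or stress signal turns on immediate early transcription within minutes. AP-1 forms when a Fos protein pairs with a Jun protein, or when Jun proteins pair with each other, through their leucine zippers. Many of the mRNAs carry AU-rich elements and are degraded quickly. Dusp1 closes the loop by dephosphorylating the kinases.

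Median intensity lay between 33.9 and 36.7 on amplified arrays and between 49.7 and 53.8 on nonamplified arrays. The lowest value in the table, an intensity of 1, was held by 6.77% to 8.36% of probe sets on amplified arrays and by 2.08% to 3.22% on nonamplified arrays. Mean intensities without amplification were 953 to 8422 for the 9 markers of embryonic stem cells, 14.5 to 82.0 for the 8 of fibroblast feeder cells and 22.1 to 75.9 for the 5 of blood cells. Of the 9, 4 and 3 markers tested in these lists, 4, 1 and 1 were higher and 3, 2 and 1 lower on amplified arrays. The feeder marker called higher had a nonamplified mean of 31.1, under the limit of 33.7 of the filter on low values. It was tested only through its amplified values. Likewise 1 of the lower feeder markers and the lower blood marker had amplified means of 30.1 and 24.3, and were tested only through their nonamplified values. Over all genes tested, at 1 probe set per gene, 27.4% were higher and 24.8% lower. The marker counts moved with the settings. Stem cell markers had 1 to 6 higher and 2 to 8 lower. Feeder markers had 0 to 1 higher and 0 to 3 lower, and blood markers 1 to 2 higher and 0 to 1 lower. The feeder markers summed to 261 to 351 on nonamplified and 197 to 338 on amplified arrays. Replicates were technical and their number limits the precision, so p-values measure the spread between reactions or labellings and not between cultures. Hybridisation strength differs between probe sets, so bright and dim describe intensities on these arrays and say nothing of which mRNA was more abundant.

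Amplification changed the members in opposite directions. Ier2 and Junb were higher, Fos and the brighter probe set of Jund were lower, and Egr1, Atf3, Ier3 and Dusp1 did not pass the test. The test was limma across 27022 probe sets on log2(intensity + 16), 2-sided, and p-values were adjusted by Benjamini and Hochberg's method, with calls made under 0.05. A log2 fold change is on that scale throughout, amplified minus nonamplified, and understates the change of dim probe sets. Of the 12 member probe sets, 8 lay above the filter on low values and 4 did not (Fosb, both of Jun and the dimmer one of Jund). The filter used the mean over all 16 arrays, so the values of either group could carry a probe set over it or keep it under. Among the 8 tested, 4 were called, 2 higher and 2 lower. Fos, among the lower ones, had an amplified mean of 27.0, under the filter limit of 33.7. It thus passed the filter through its nonamplified values, and it was called lower without the filter as well. Over all tested probe sets 57.5% were called, 24.7% higher and 32.8% lower. The groups did not overlap for 3 of the 8 (Ier2, Fos and Jund), against 33.6% of all tested probe sets. These shares are near the background, so the counts set the immediate early genes apart in no way.

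**Figure D1:**
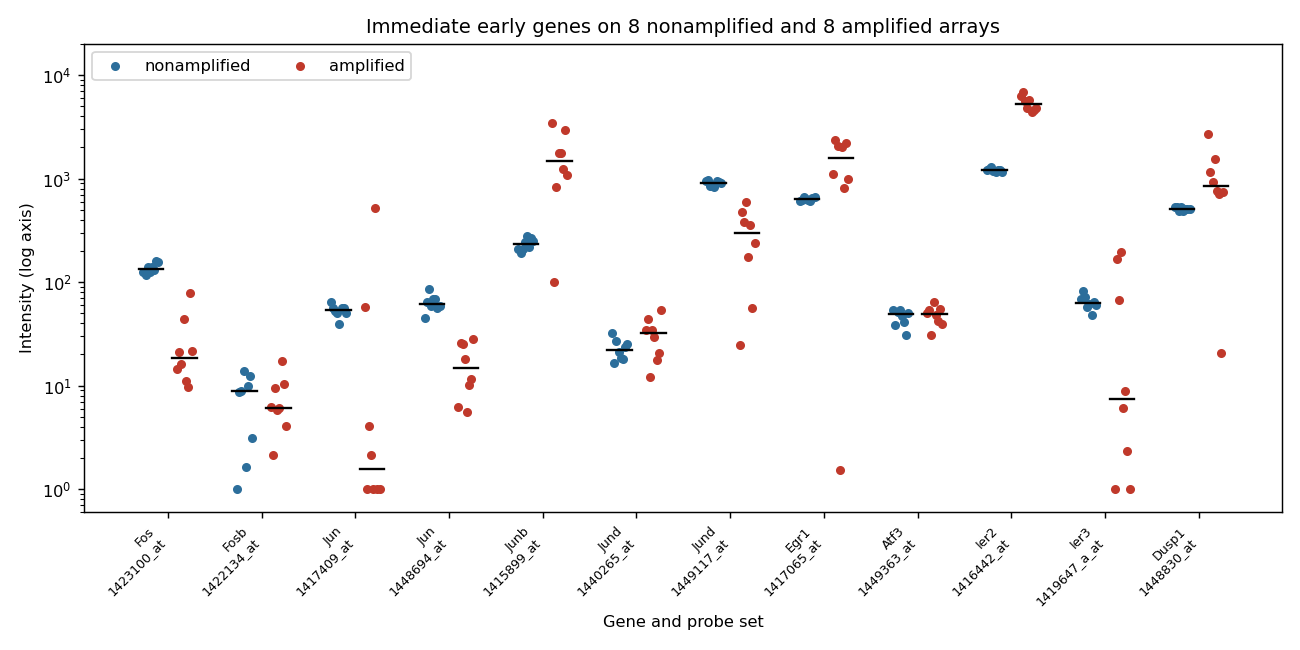
Intensity of each member probe set (log axis) on 8 nonamplified and 8 amplified arrays. Points are arrays and black lines are medians. Ier2 is higher and Fos lower on every amplified array, whereas Egr1 and Dusp1 are higher on 7 amplified arrays and far lower on 1.

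Fos encodes the AP-1 subunit that gave the family its name and cannot pair with itself. Its probe set 1423100_at measured a lowest value of 118, a median of 135 and a highest of 161 on nonamplified arrays. On amplified arrays it measured 9.76, 18.6 and 78.1. All 8 amplified arrays lay below all nonamplified arrays. The mean fell from 137 ± 15.9 to 27.0 ± 23.3 (SD, n = 8 each), which is −1.96 on the log2 scale (SE 0.23, limma adjusted p = 1.11e-06). Relative to the other probe sets of its array, the median position of Fos moved from percentile 74.3 to percentile 32.9.

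Fosb encodes a close relative of Fos. Its probe set 1422134_at stayed near the bottom of the table in both groups, between 1 and 13.9 without amplification and between 2.14 and 17.5 with it. It lay below the 25th percentile of the array on all 8 nonamplified and on 7 amplified arrays. The groups overlapped, and without the filter its log2 fold change was 0.021 (SE 0.15, limma adjusted p = 0.923), with a 95% interval of −0.30 to 0.34. Under other scalings the value ran from −0.094 to 0.42, and it was called higher under quantile normalization.

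Junb encodes a Jun protein that is a weaker activator than Jun on many promoters and opposes it on some. On nonamplified arrays 1415899_at measured 190 at its lowest, 233 at its median and 279 at its highest. Amplified arrays measured 99.6, 1491 and 3461. On 7 amplified arrays Junb was above every nonamplified array and on replicate 2 it was below all of them. The mean rose from 234 ± 31.9 to 1650.0 ± 1109.5 (SD, n = 8 each). The log2 fold change was 2.28 (SE 0.52, limma adjusted p = 0.00118), with a 95% interval of 1.18 to 3.37, and 2.76 without amplified replicate 2.

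Jund encodes the Jun protein that many resting cells already make. Its probe set 1449117_at was high and even without amplification, from 828 to 966 with a median of 917. With amplification its lowest value was 24.6, its median 297 and its highest 595. Every amplified array lay below every nonamplified array, and replicates 1 and 7 lay far below the other amplified arrays, at 24.6 and 55.8. The mean fell from 906 ± 50.9 to 288 ± 200.5 (SD, n = 8 each), which is −2.04 on the log2 scale (SE 0.47, limma adjusted p = 0.00125).

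The other probe set of Jund, 1440265_at, was dim in both groups. Its values ran from 16.4 to 32.4 without amplification and from 11.98 to 53.3 with it, and the groups overlapped. Without the filter its log2 fold change was 0.22 (SE 0.17, limma adjusted p = 0.303). It was called higher under quantile normalization (0.62) and after centring arrays on their medians (0.56). The fold changes of the 2 Jund probe sets differed by 2.26 on the log2 scale (SE 0.49, limma adjusted p = 0.000953 over 30372 pairs of probe sets of the same gene, no filter). Such differences were common, since 51.9% of those pairs passed the same test, as did 56.4% of 14813 pairs above the filter.

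Jun encodes the founding Jun protein, target of the JNK kinases. Both of its probe sets lay under the filter, 1448694_at just under it with a mean level of 33.4 against a limit of 33.7. That mean is over all 16 arrays, so the low amplified values of both probe sets entered it. Their median percentiles on nonamplified arrays were 51.4 (1417409_at) and 55.5 (1448694_at). Both therefore stand outside the counts of tested members. Without amplification 1448694_at measured 44.8 to 84.8 with a median of 61.7. With amplification it measured 5.58 to 28.3 with a median of 14.8, and the groups did not overlap. Without the filter the log2 fold change was −1.33 (SE 0.17, limma adjusted p = 3.15e-06), where 50.1% of 45037 probe sets were called. In the same fit 31.1% of probe sets were lower, and the groups did not overlap for 25.7%.

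The Jun probe set 1417409_at behaved differently from array to array. Without amplification its values lay between 39.3 and 64.7 with a median of 54.3. With amplification 4 of 8 arrays were at the lowest value of the table and the median was 1.56. Replicate 1 reached 57.0 and replicate 6 reached 524, above every nonamplified array. Over all arrays the log2 fold change was −1.09 (SE 0.59, limma adjusted p = 0.141, no filter), and without amplified replicate 6 it was −1.67 (limma adjusted p = 6.53e-05). With a pseudocount of 1 in place of 16 it was −2.89 and called (limma adjusted p = 0.0245). The fold changes of the 2 Jun probe sets were not found to differ (difference 0.24, 95% interval −1.19 to 1.67, limma adjusted p = 0.792, no filter).

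**Figure D2:**
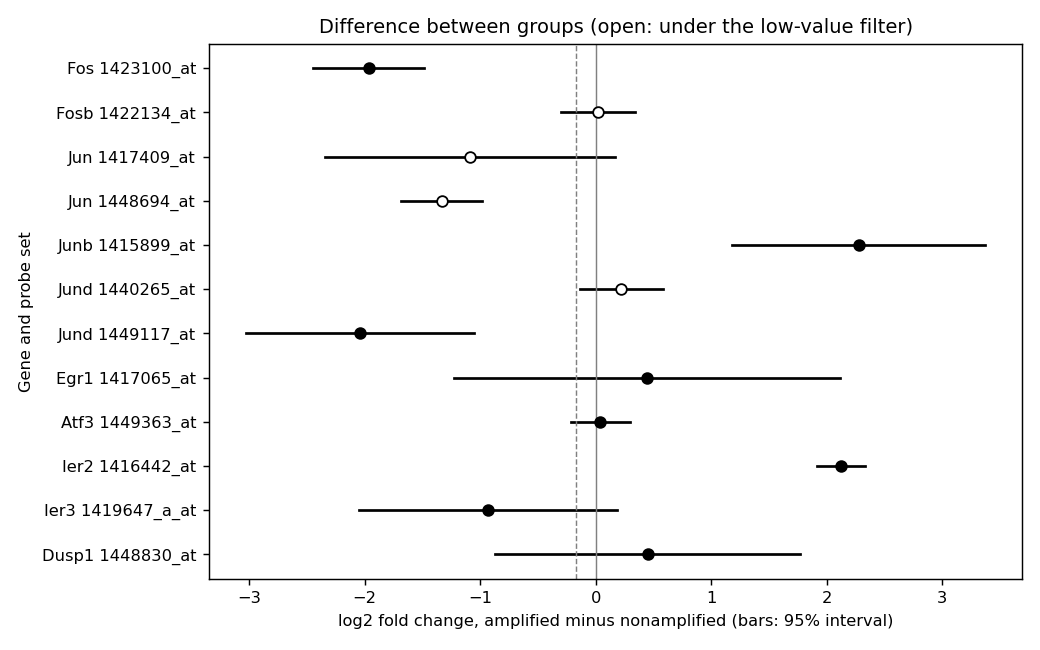
log2 fold change of each member probe set, amplified minus nonamplified, with its 95% interval. Open circles are the 4 probe sets under the filter on low values, fitted without it, and the dashed line is the median of all tested probe sets, −0.17. Junb and Ier2 lie to the right, and Fos, the brighter Jund probe set and 1448694_at of Jun lie to the left.

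Egr1 encodes a zinc finger transcription factor that is a standard readout of ERK signalling. Without amplification 1417065_at lay between 606 and 668 with a median of 629. With amplification the lowest value was 1.53, the median 1578 and the highest 2343. On 7 amplified arrays Egr1 exceeded all nonamplified arrays, with a lowest value of 813 among them, and on replicate 4 it was close to the lowest value of the table. The means were 635 ± 23.5 and 1451 ± 840.5 (SD, n = 8 each). The log2 fold change of 0.45 did not pass (SE 0.79, limma adjusted p = 0.659), and its 95% interval ran from −1.23 to 2.12. Without amplified replicate 4 it was 1.25 (limma adjusted p = 0.000128), and with all arrays under quantile normalization it was −0.11.

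Dusp1 encodes a nuclear phosphatase that inactivates p38, JNK and ERK, and so ends the signal that induces the other members. Its probe set 1448830_at lay between 490 and 537 without amplification. With amplification it measured 20.6 at its lowest, 843 at its median and 2705 at its highest. As for Egr1, 7 amplified arrays lay above all nonamplified arrays and 1 lay below all of them, but here it was replicate 7. The log2 fold change was 0.45 (SE 0.62, limma adjusted p = 0.565), and 1.06 without amplified replicate 7 (limma adjusted p = 0.00126). Under quantile normalization of all 16 arrays it was −0.011.

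Atf3 encodes a bZIP factor induced by many stresses that often acts as a repressor. It was the member that differed least among those tested. Without amplification 1449363_at measured 31.2 to 54.2 with a median of 48.7, and with amplification 30.7 to 64.1 with a median of 49.2. The means were 45.9 ± 8.16 and 48.0 ± 10.4 (SD, n = 8 each), and the log2 fold change was 0.041 (SE 0.12, limma adjusted p = 0.791), with a 95% interval of −0.21 to 0.29. Its direction depended on the scaling. The groups overlapped. It was called higher under quantile normalization (0.44) and after centring arrays on their medians (0.46), and was −0.27 when scaled on the hybridization controls (limma adjusted p = 0.153).

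Ier2 encodes a small nuclear protein. It gave the most even rise of the tested members. Without amplification 1416442_at measured 1158 at its lowest, 1214 at its median and 1297 at its highest. With amplification these values were 4425, 5256 and 6836. All 8 amplified arrays lay above all nonamplified arrays, and the lowest and highest of them differed 1.54-fold. The mean rose from 1213 ± 46.1 to 5393 ± 879 (SD, n = 8 each), which is 2.12 on the log2 scale (SE 0.096, limma adjusted p = 9.59e-12). Its size followed the scaling, from 1.31 under quantile normalization to 2.68 after centring arrays on their medians.

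Ier3 encodes a protein linked to survival signalling through ERK. Without amplification 1419647_a_at lay between 48.1 and 82.9 with a median of 63.2. With amplification it was split. Replicates 2 and 4 reached 167 and 194, above all nonamplified arrays, replicate 3 lay within their range at 66.6, and the other 5 arrays lay between 1 and 8.86. The log2 fold change of −0.93 did not pass (SE 0.53, limma adjusted p = 0.144). It was called lower without amplified replicate 2 (−1.24, limma adjusted p = 0.0351), without amplified replicate 4 (−1.27, limma adjusted p = 0.0256) or scaled on the hybridization controls (−1.21, limma adjusted p = 0.0428).

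**Figure D3:**
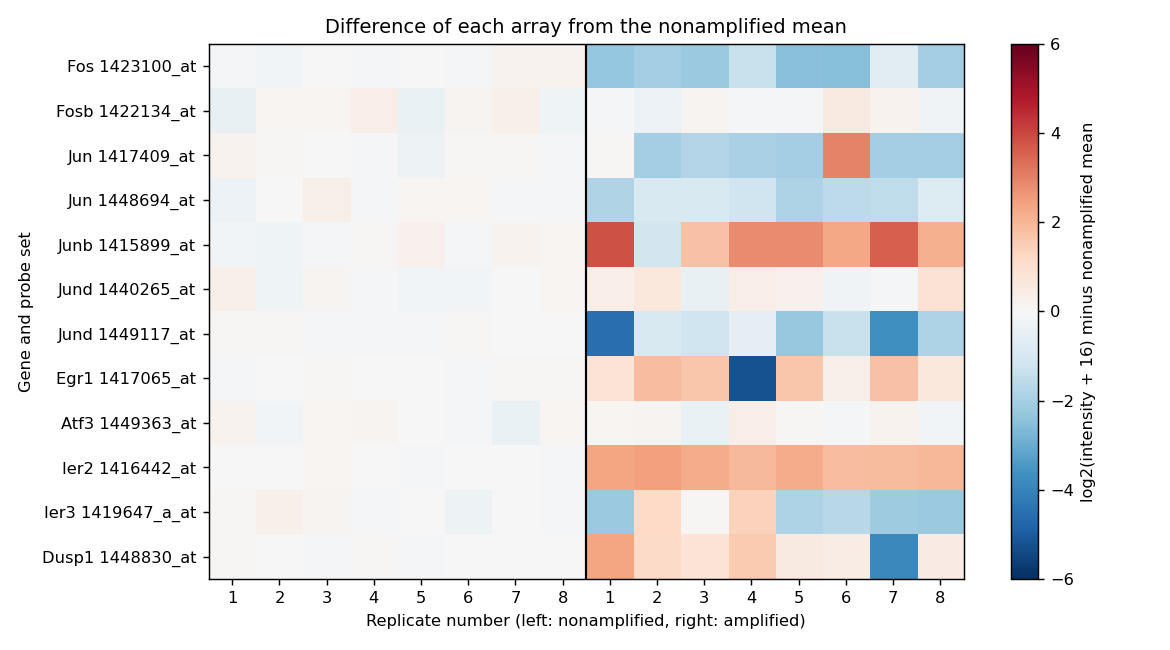
Difference of each array from the nonamplified mean of the same probe set, on the log2(intensity + 16) scale, with nonamplified arrays on the left and amplified arrays on the right. Nonamplified columns are nearly blank, and deep blue cells mark Egr1 on amplified replicate 4, Dusp1 on replicate 7 and Jund on replicates 1 and 7.

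Read by array, the lowest values of Egr1, Dusp1 and Junb fell on 3 different reactions. Egr1 was near the lowest value on amplified replicate 4, where Ier3 had its highest value, 194, and Jund its highest, 595. Dusp1 was low on replicate 7, as were the brighter Jund probe set (55.8), Ier3 (2.34) and the Jun probe set 1417409_at (1.0), whereas Junb was 2974 there and Fos had its highest value, 78.1. Junb was low on replicate 2, where Egr1 and Ier2 had their highest values, 2343 and 6836. Each amplified array had 4 to 6 of the 12 probe sets above all nonamplified arrays and 4 to 6 below all of them. The same shares over all probe sets are not given here, so these counts do not set the members apart. Values below the 25th percentile of their array numbered 26 of 96 on amplified and 12 of 96 on nonamplified arrays. All 12 of the latter came from Fosb (8) and the dimmer Jund probe set (4). By definition 25% of all probe sets of an array lie below this limit, so the amplified number is near the background. Among the 8 probe sets above the filter these numbers were 8 of 64 and 0 of 64, the 8 coming from Ier3 (5), Fos (2) and Egr1 (1). The share over all tested probe sets is not given here, so nothing particular to the members is read from them.

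Spread among arrays was compared through the absolute deviation of each array from the mean of its group on the log2 scale, again with limma over all tested probe sets. It was larger on amplified arrays for Ier3, Jund, Ier2 and Fos, 4 of the 8 tested members, where 52.8% of all tested probe sets were called larger and 0.418% smaller. For Ier3 the mean deviation was 0.14 without and 1.36 with amplification, a difference of 1.22 (SE 0.20, limma adjusted p = 0.000216). For Jund it was 0.066 and 1.08, a difference of 1.02 (SE 0.26, limma adjusted p = 0.00472). Ier2 differed by 0.16 (SE 0.045, limma adjusted p = 0.00906), and this turned to −0.13 when scaled on the hybridization controls (limma adjusted p = 0.132). Fos differed by 0.35 (SE 0.14, limma adjusted p = 0.0376), and this call was lost under quantile normalization, without the filter, with a pseudocount of 64 and scaled on the hybridization controls (limma adjusted p = 0.0519, 0.0508, 0.0885 and 0.366). It was also lost with several single arrays left out, down to 0.18 without amplified replicate 7 (limma adjusted p = 0.119).

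Egr1, Dusp1 and Junb had larger mean deviations after amplification as well, but the differences did not pass the test. For Egr1 the difference was 1.40 (SE 0.60, limma adjusted p = 0.0586), for Dusp1 1.04 (SE 0.48, limma adjusted p = 0.0804) and for Junb 0.84 (SE 0.36, limma adjusted p = 0.0616). These outcomes depended on single arrays. Without amplified replicate 4 the difference for Egr1 was 0.52 and called (limma adjusted p = 3.29e-05). Without amplified replicate 7 that for Dusp1 was 0.50 (limma adjusted p = 0.00586), and without amplified replicate 2 that for Junb was 0.42 (limma adjusted p = 0.0210). Leaving out any other amplified array also brought Egr1 past the threshold, as did replicate 1 for Dusp1 (1.11) and replicates 6 and 8 for Junb (0.98 and 0.96). Among the probe sets under the filter, those of Jun were called larger without it, 1417409_at by 1.202 and 1448694_at by 0.21 (limma adjusted p = 0.0199 and 0.0443), where 33.5% of all probe sets were. The former was lost without amplified replicate 6 (0.39) or replicate 1 (1.10), and the latter when any of 11 single arrays was left out. The latter was also lost with a pseudocount of 64 (0.046, limma adjusted p = 0.375) and scaled on the hybridization controls (0.068, limma adjusted p = 0.695). Atf3 differed by 0.025 (SE 0.065, limma adjusted p = 0.754).

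**Figure D4:**
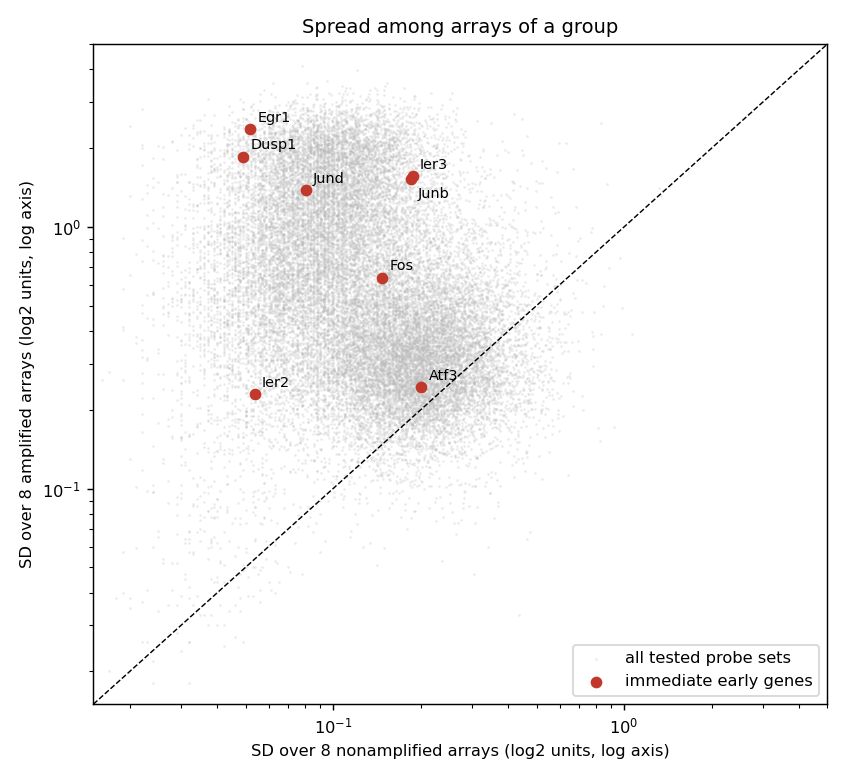
SD over 8 amplified arrays against SD over 8 nonamplified arrays, in log2 units on log axes, for all tested probe sets (grey) and the 8 tested members (red). The dashed line marks equal spread. Egr1 and Dusp1 have SDs of 2.36 and 1.86 with amplification and 0.052 and 0.049 without it, and Atf3 lies near the line with 0.24 and 0.20. The amplified SDs of Egr1 and Dusp1 include replicates 4 and 7, which lay far below the other amplified arrays.

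Among tested probe sets, 97.2% had a smaller amplified SD than Egr1 and 90.6% a smaller one than Dusp1. Both ranks include a single far lower array. For Egr1 it was replicate 4 at 1.53, where the next lowest array measured 813. For Dusp1 it was replicate 7 at 20.6, where the next lowest measured 715. Without amplification the same probe sets were among the steadier ones, with 7.56% and 6.16% of tested probe sets below them. Ier2 was steady in both groups, with 13.2% of probe sets below it with and 8.33% without amplification. The coefficient of variation of Egr1 was 57.9% with amplification and 3.70% without it, and that of Ier2 was 16.3% and 3.80%.

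**Figure D5:**
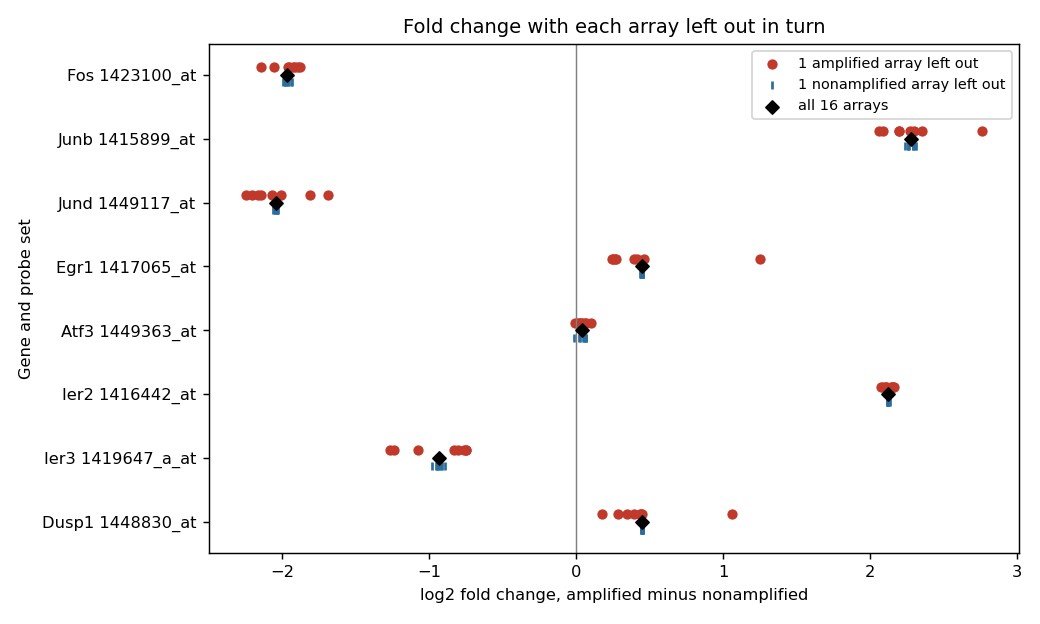
log2 fold change of the 8 tested member probe sets with all 16 arrays (diamonds) and with each array left out in turn (circles for amplified, bars for nonamplified arrays). The single circles to the right of Egr1, Dusp1 and Junb are the fits without amplified replicates 4, 7 and 2, at 1.25, 1.06 and 2.76.

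Other immediate early genes outside the 10 members also moved both ways. Genes were read at the probe set of the highest mean over the 16 arrays. Of 45 such genes 40 were tested, of which 8 were higher, 14 lower and 18 did not pass, with a median log2 fold change of −0.23. Across settings 4 to 15 were higher and 7 to 17 lower. Over all 13660 genes tested in this way 27.4% were higher and 24.8% lower, with a median of −0.026. Egr3, a zinc finger relative of Egr1, measured 615 to 793 without amplification and 10.2 to 27.0 with it. Its log2 fold change was −4.39 (SE 0.11, limma adjusted p = 5.87e-15). Dusp6, a cytoplasmic phosphatase of ERK related to Dusp1, fell by 3.52 on the log2 scale. The amplified means of Egr3 and Dusp6, 19.1 and 26.8, were under the filter limit of 33.7, so both were tested only through their nonamplified values. Mcl1, a survival protein of the Bcl2 family, rose by 0.61 on the log2 scale as deposited, and quantile normalization made this −0.28. Klf2, a zinc finger factor, rose from 2279 ± 50.9 to 4587 ± 1581 (SD, n = 8 each), a log2 fold change of 0.91, which was 0.031 under quantile normalization (limma adjusted p = 0.904) and did not pass scaled on the hybridization controls either (0.49).

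Upstream kinases and transcription factors were tested for 19 of 25 listed genes. They had 4 higher and 4 lower members, 11 did not pass and the median log2 fold change was 0.088. Over all settings run, single arrays aside, 2 to 7 were higher and 2 to 5 lower. Map2k2, the ERK kinase MEK2, measured 190 to 242 without amplification and 636 to 6460 with it. Rps6ka5, the kinase MSK1 that phosphorylates CREB and histone H3, measured 31.0 to 60.8 and 436 to 892. Their log2 fold changes were 3.32 (SE 0.38) and 3.36 (SE 0.13), and both rose under every scaling run. Map2k1, encoding MEK1, rose by 0.64 as deposited but was −0.083 under quantile normalization. Mapk14, encoding p38 alpha, did not pass (0.37, limma adjusted p = 0.0715), and passed as higher after centring arrays on their medians (0.92) and after scaling by the brighter 50% of probe sets (0.70), but was −0.056 under quantile normalization and −0.036 scaled on the hybridization controls.

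Other bZIP factors, which can pair with Fos, Jun or Atf3 proteins or bind related sites, were tested for 19 of 22 listed genes, with 4 higher, 5 lower and 10 that did not pass (median −0.084). Across settings 2 to 8 were higher and 2 to 9 lower. Atf7 measured 6.37 to 34.8 without amplification and 259 to 395 with it, a log2 fold change of 3.39 (SE 0.15). Its nonamplified mean of 18.5 was under the filter limit of 33.7, so Atf7 was tested only through its amplified values. Maf rose by 2.16 and Atf4, the effector of the integrated stress response, by 1.12, and these 3 were higher under every scaling run. Atf2, a Jun partner that binds cAMP response elements, did not pass (0.54, limma adjusted p = 0.0949) and ran from −0.080 under quantile normalization to 1.09 after centring arrays on their medians, where it was called higher, as it was scaled on the brighter 50% of probe sets (0.87).

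Factors of AU-rich mRNA decay were tested for 17 of 18 listed genes, with 5 higher, 5 lower and 7 that did not pass (median −0.0048). Across settings 2 to 6 were higher and 4 to 8 lower. Zfp36l2, a relative of tristetraprolin that targets AU-rich mRNAs for decay, rose by 2.13 (SE 0.12). Exosc10, a nuclease of the nuclear exosome, had amplified values between 6.72 and 314, all below its nonamplified range of 345 to 431, and a log2 fold change of −2.15 (SE 0.49). Elavl1, the stabilising protein HuR, fell by 1.58 on the log2 scale. Hnrnpd, the decay factor AUF1, had a log2 fold change of 0.87, which was −0.0080 under quantile normalization.

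The genes whose profile over the 16 arrays was closest to that of Junb, the called member of the largest absolute log2 fold change, were Crygb, Ndufaf8 and Ndufs7. Likeness was the root mean square difference of log2 values, each centred on its nonamplified mean, over 22821 probe sets of other named genes. It was 0.53 for Crygb, a lens crystallin, 0.67 for Ndufaf8, an assembly factor of respiratory complex I, and 0.68 for Ndufs7, a subunit of that complex. All 3 were lowest among amplified arrays on replicate 2, as Junb was. Ndufs7 ran from 466 to 6789 on amplified arrays and from 665 to 818 on nonamplified arrays. Crygb ran from 1.0 to 281 on amplified arrays and only from 1.21 to 22.7 on nonamplified arrays. Crygb thus passed the filter through its amplified values alone.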

How the data were processed

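The authors deposited a table of linear intensities, with a value for every probe set on each of the 16 arrays. Per the labels' protocols, RNA was prepared on silica columns and biotin-labelled cRNA came from Affymetrix's one-cycle protocol. The software for probe set summaries and array scaling is not given in the sources used here. Of 45101 probe sets, 64 controls were left out. Of the rest, 34945 had a single gene symbol in the platform annotation (34741 matched RefSeq of assembly GRCm38.p6 by identifier), 932 had several and 9160 had none here.

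Values were used as deposited, as log2(intensity + 16). The filter kept the 27022 probe sets with a mean log2 value over all 16 arrays above the 40th percentile, which corresponds to an intensity of 33.7. Groups came from the sample titles. Differences, spreads and pairs of probe sets were fitted without covariates in limma (lmFit, eBayes, version 3.58.1, under R 4.3.3), and each fit was tested on simulated data. Plots used matplotlib 3.10.9 (Python 3.11.15). All probe sets of the members are reported. From each of the 4 lists of related genes (not the cell type markers, given as ranges and counts) the text names the 2 brightest tested genes without amplification and the 2 called genes of the largest absolute log2 fold change. Members and lists were chosen with earlier results of these data known. Genes of the lists with no probe set of that single name were not analysed here.

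Alternatives were other pseudocounts, scalings, filters, weights per group, the replicate number as a block, another probe set per gene, other percentiles and leaving out each array. Technical batches were not tested, as the labels name none.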

Additional observations from a re-analysis of the deposited data

Results flagged for a closer look

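Among the 12 member probe sets, 4 held an amplified array far from the other 7, and none held such a nonamplified array. Over all probe sets without controls the same limit was passed by 11.1% on amplified and 5.98% on nonamplified arrays. The limit is set so that about 1 in 20 sets of normally spread values passes it, which does not hold for values at the lowest one of the table. With 12 probe sets chosen with results known, nothing particular to the members is read from the count. Egr1 measured 1.53 on amplified replicate 4, with a gap to the next array of 0.79 of the range on the log2 scale. Dusp1 measured 20.6 on amplified replicate 7 (gap 0.70 of the range). Junb measured 99.6 on amplified replicate 2 (gap 0.59 of the range). The Jun probe set 1417409_at measured 524 on amplified replicate 6 (gap 0.58 of the range), with 4 of the other amplified arrays at the lowest value. These were 4 different arrays.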

How the results depend on the processing

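Junb, Ier2, Fos and the brighter Jund probe set kept direction and call under all alternatives run, with log2 fold changes of 1.88 to 2.81, 1.31 to 2.68, −2.62 to −1.17 and −2.43 to −1.51, single arrays aside. The number of members called was 4 or 5, and 4 to 6 with single arrays left out (2 to 3 higher, 2 to 3 lower). The number with a called spread was 2 scaled on the hybridization controls, 6 with the filter on mean intensities, chosen after seeing the data, and 3 to 6 with single arrays left out. Among all 27022 tested probe sets, spread calls numbered 14376 in the main fit. They numbered 7516 scaled on the hybridization controls and 14791 with the filter on mean intensities. That filter also let in both Jun probe sets, so its 6 are not out of the same 8. With the replicate number as a block, members called stayed at 4 for the difference and 4 for the spread, and 7961 pairs of probe sets passed. Same-numbered arrays of both groups correlated at −0.0078 to 0.018 and 3 of 8 matched their own number best. No pairing by number is seen in these values, and the labels do not say whether the numbers link the arrays. In the block fit the spread call of the Jun probe set 1448694_at was lost (adjusted p = 0.0517, no filter). All-table pairs whose fold changes differed numbered 8354, 15771 without the filter and 5026 with a 60th percentile filter, which test more and fewer pairs, and 7965 to 8521 with single arrays left out. Amplified member values under the 10th percentile numbered 10, against 26 under the 25th.

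The following values changed direction, and the cause was not tested. Under quantile normalization the log2 fold changes of Egr1 and Dusp1 were −0.11 and −0.011. Scaled on the hybridization controls, those of Atf3, Fosb and the dimmer Jund probe set were −0.27, −0.094 and −0.039, and the spread differences of Atf3 and Ier2 were −0.047 and −0.13. With a pseudocount of 1 the difference between the Jun probe sets was −0.81. With single arrays left out Atf3 ran from −0.013 to 0.10, its spread difference from −0.026 to 0.076, Fosb from −0.053 to 0.075 and the Jun pair from −0.38 to 0.45.

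The median log2 fold change of all tested probe sets was −0.17 as deposited, −0.029 under quantile normalization, 0.28 with arrays centred on the median, 0.098 scaled on the brighter 50% and −0.51 scaled on the hybridization controls. Values close to the lowest one of the table carry no order.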
